A study of Mus musculus with 20 samples.

Results

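The microRNAs (miRNAs) of serum from young Ames dwarf mice were compared with those of serum from young normal mice, in 5 libraries of each group, which are 10 of the 20 libraries of the series. The libraries were taken by their labels, and each mature miRNA was represented by the precursor row that held most of its reads over the whole series. The series measured small RNA in the serum of female mice of both genotypes at 5 to 6 months (young) and at 21 to 22 months (old). Young normal and young dwarf mice differ in genotype, and they share sex, age range and a strain label that names the Ames dwarf stock on a heterogeneous background for both. No drug, diet or transgene is named for any group. The labels do not say whether each library came from its own mouse, so the p-values measure the spread between these libraries, which may be partly technical.

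Ames dwarf mice make almost no growth hormone, prolactin or thyroid-stimulating hormone, stay small, are low in insulin-like growth factor 1 and thyroid hormone, and live much longer than their normal siblings. A miRNA is a short RNA that guides an Argonaute protein to messenger RNAs, mainly through its seed, the stretch from base 2 to base 8. Serum miRNAs come from blood cells, vessel walls, liver, muscle and other tissues, inside vesicles or bound to proteins. In such a bulk sample, fewer releasing cells of a type and less RNA released per cell cannot be told apart.

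The mature sequences of some of the miRNAs described below, not all of which led the comparison, are printed 5′ to 3′ with the seed in capitals. They were taken from RefSeq (GRCm38.p6), which held 311 of the 360 miRNAs tested. The first 5 are enriched in liver or intestine and stood higher in young dwarf serum.
miR-802-5p: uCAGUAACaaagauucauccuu
miR-192-5p: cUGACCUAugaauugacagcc
miR-215-5p: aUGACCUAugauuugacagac
miR-194-5p: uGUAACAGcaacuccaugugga
miR-148a-3p: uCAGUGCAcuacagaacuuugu
The next pair comes from introns of the cardiac myosin heavy chain genes. These miRNAs share a seed but had log2 fold changes of opposite sign in young serum.
miR-208a-3p: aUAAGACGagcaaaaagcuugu
miR-208b-3p: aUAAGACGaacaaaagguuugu
The following pair holds both arms of the hairpin of the imprinted gene Mest, also with log2 fold changes of opposite sign. Then comes an epithelial miRNA that stood lower in young dwarf serum.
miR-335-5p: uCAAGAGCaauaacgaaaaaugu
miR-335-3p: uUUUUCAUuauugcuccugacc
miR-205-5p: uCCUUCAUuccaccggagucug
Next are a pair of miRNAs from the imprinted Dlk1-Dio3 locus and a pair from the miR-34 and miR-449 genes.
miR-434-3p: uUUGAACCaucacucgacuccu
miR-376b-5p: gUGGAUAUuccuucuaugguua
miR-34c-3p: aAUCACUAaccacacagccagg
miR-449a-5p: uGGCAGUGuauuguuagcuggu

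Library totals were summed over names, so reads listed under several names, such as miR-486a-5p and miR-486b-5p, counted under each. The young libraries held between 1653992 and 4710263 miRNA reads so counted, with 2084127 ± 236567 (SD, n = 5) in dwarf and 2808131 ± 1286067 in normal serum. At an equal depth of 1653992 reads so counted, 633.3 ± 19.0 miRNAs were detected in dwarf and 611.4 ± 32.8 in normal libraries. The erythrocyte miRNA miR-486a-5p, whose reads are also listed under miR-486b-5p, was the most abundant, and miR-16-5p and miR-451a were abundant too, as in serum that carries red-cell RNA. With its reads listed under both names, miR-486a-5p took 23.2% ± 4.18 of the total in dwarf and 26.1% ± 3.86 in normal libraries, the share tested below, and counted once it took 30.6% ± 6.94 and 35.8% ± 7.08. An index of haemolysis, which sets red-cell miR-451a against the stable miR-23a-3p on a log2 scale, was 5.40 ± 0.43 in dwarf and 5.45 ± 0.61 in normal libraries (adjusted p = 0.873, exact permutation test, 2-sided). Total reads, miRNAs detected, the share of miR-486a-5p and the share of the 10 most abundant names did not pass either (adjusted p = 0.456 for each, exact permutation tests over 5 measures). On the first principal component of the young libraries, normal 1, normal 4 and dwarf 1 stood apart from the other 7, and values without these 3 libraries are given for the main groups of miRNAs below.

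Of 1067 miRNAs with a read in a young library, 360 had enough reads to be tested. No miRNA passed an adjusted p of 0.05 in either direction in edgeR's quasi-likelihood test (0% higher and 0% lower of 360). At an unadjusted p under 0.05 the same test gave 14 miRNAs higher (3.89% of those tested) and 14 lower in dwarf serum (3.89%). The smallest adjusted p was 0.183, shared by miR-335-3p, miR-205-5p, miR-802-5p and miR-5113. DESeq2, run on the same counts, called 3 miRNAs higher, namely miR-192-5p, miR-215-5p and miR-802-5p (0.843% of 356), and 3 lower, namely miR-205-5p, miR-335-3p and miR-5113 (0.843%). The values below therefore describe where the libraries of the groups lay and do not establish a change by the main test.

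Differences were small for most miRNAs. Over all 360, 163 stood higher and 197 lower in dwarf serum, with a median log2 fold change of -0.04, and 37 differed by more than 1 on the log2 scale, 25 of them higher. The standard error of a log2 fold change had a median of 0.30 among the 126 miRNAs of at least 100 CPM (reads scaled to a common library total) and 0.45 among the other 234. All 5 dwarf libraries lay above all 5 normal libraries for 3 miRNAs (0.833% of those tested), which were miR-2137, miR-148a-5p and miR-340-5p, the last of which was picked out after its values were seen. All dwarf libraries lay below all normal libraries for 4 (1.11%), which were miR-335-3p, miR-28a-3p, miR-345-3p and miR-34c-3p, which makes 7 without overlap in either direction (1.94%).

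The liver and gut miRNAs were the group with the largest median difference among those that stood higher. All 8 tested members of an 11-member list stood higher in dwarf serum, with a median log2 fold change of 1.47 beside -0.04 over all tested miRNAs. None passed the adjusted threshold, and 6 had an unadjusted p under 0.05, against 7.78% of all miRNAs in either direction. On the higher side alone that background was 3.89%. The list was chosen with earlier results of these data known, and it counts both arms of miR-802 and of miR-148a. The read filter used all 20 libraries, so members low in normal serum could pass it through dwarf libraries alone. That all 8 stood higher and 6 had such a p is therefore only a description. Leaving out dwarf 3 brought the list's median to 0.87, and leaving out dwarf 3 and dwarf 5 together brought it to 0.62, while it was 1.64 without normal 1, normal 4 and dwarf 1.

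MiR-802-5p, a liver-enriched miRNA known for its part in hepatic insulin signalling, is encoded between genes at chr16:93369720-93369816 (GRCm38, the build of all positions given). It stood at 14.1, 6.70, 18.2, 11.3 and 6.70 CPM in normal libraries 1 to 5 and at 23.2, 28.2, 148, 18.0 and 115 CPM in dwarf libraries 1 to 5. The groups overlapped only through dwarf 4, which lay just under normal 3, and dwarf 3 and 5 lay far above every other library. The log2 fold change was 2.54 (SE 0.70, edgeR adjusted p = 0.183). The other arm of the hairpin, miR-802-3p, had 1.42, 1.60, 39.9, 4.98 and 26.9 CPM in the dwarf libraries and 1.13 to 5.54 CPM in the normal ones, so its difference rested on the same 2 libraries (log2 fold change 2.63, SE 0.90, edgeR adjusted p = 0.347). Without dwarf 3, the value of miR-802-3p was 1.83 and that of miR-802-5p 1.97.

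MiR-122-5p, the dominant miRNA of hepatocytes and a serum marker of their damage, followed that library pattern without a difference shared by the group. Its levels were 17.5, 6.28, 69.6, 5.91 and 5.99 CPM in normal and 5.22, 1.60, 204, 16.1 and 99.3 CPM in dwarf libraries. Dwarf 3 and 5 were again highest, normal 3 came next, and dwarf 1 and 2 were the lowest of all 10 libraries. The log2 fold change of 1.63 (SE 1.18, edgeR adjusted p = 0.700) turned to -1.47 when dwarf 3 and 5 were left out. These levels rest on few reads, 5 to 553 per library.

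MiR-192-5p and miR-194-5p have neighbouring hairpins on chromosome 19 (Mir192 at chr19:6264844-6264932), a second hairpin of miR-194-5p lies beside Mir215 on chromosome 1, and its reads cannot be assigned to either. Both miRNAs are abundant in liver, intestine and kidney. MiR-192-5p had 5756, 2993, 5923, 5456 and 3121 CPM in normal and 9999, 7874, 22340, 5538 and 14529 CPM in dwarf libraries. Only dwarf 4 fell within the normal range, and dwarf 3 and 5 were highest. Its log2 fold change was 1.37 (SE 0.40, edgeR adjusted p = 0.206), and 0.998 without dwarf 3. MiR-194-5p had 28.5, 24.7, 59.5, 20.7 and 37.0 CPM in dwarf libraries against 11.3 to 24.3 CPM in normal ones, with dwarf 3 and 5 highest and dwarf 4 alone inside the normal range (log2 fold change 1.05, SE 0.45, edgeR adjusted p = 0.460).

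MiR-215-5p shares its seed with miR-192-5p and differs from it at 3 of 21 bases, written C1A, A12U and C20A with the base of miR-192-5p first and positions counted from the 5′ end. It is known as an intestinal and renal miRNA and is encoded at chr1:185313581-185313692, in an exon of the noncoding gene 2010103J01Rik and opposite an intron of Iars2. The normal libraries held 4072, 1556, 2372, 4060 and 1849 CPM and the dwarf libraries 13622, 11115, 2865, 4286 and 9239 CPM. Dwarf 1, 2, 4 and 5 lay above all normal libraries, and dwarf 3, the library with the most miR-192-5p and miR-802-5p, was the lowest dwarf library. The log2 fold change was 1.56 (SE 0.48, edgeR adjusted p = 0.246). The log2 ratio of miR-192-5p to miR-215-5p therefore ran from -0.50 to 2.96 among dwarf libraries and from 0.43 to 1.32 among normal ones, a description chosen after the values were seen.

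**Figure D1:**
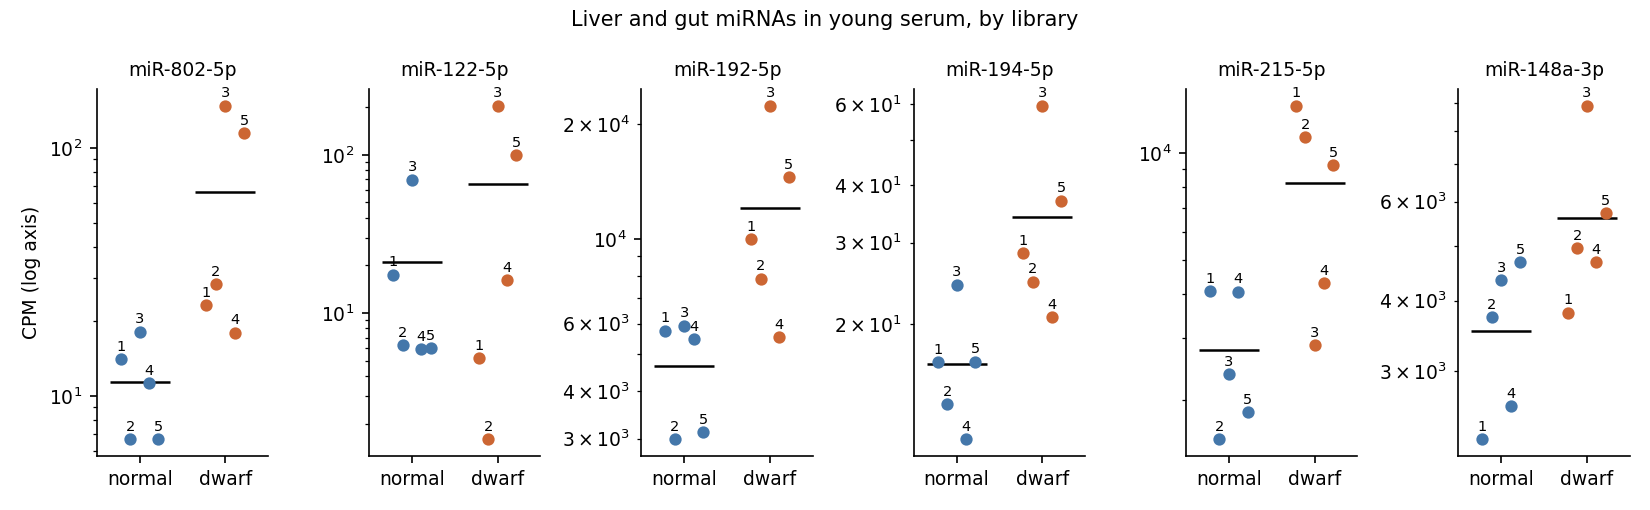
CPM on log axes, each panel with its own range, for 6 liver and gut miRNAs in the 5 normal and 5 dwarf young libraries, numbered by replicate, with a black line at the group mean. Dwarf 3 and dwarf 5 were highest for miR-802-5p, miR-122-5p, miR-192-5p, miR-194-5p and miR-148a-3p, whereas dwarf 1 and dwarf 2 were highest for miR-215-5p.

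MiR-148a-3p, a hepatocyte miRNA that targets lipid and cholesterol genes, had 2269, 3734, 4349, 2593 and 4677 CPM in normal and 3805, 4959, 8886, 4677 and 5726 CPM in dwarf libraries. Dwarf 1 lay below normal 3 and 5, dwarf 4 was level with normal 5, and dwarf 3 was highest (log2 fold change 0.67, SE 0.27, edgeR adjusted p = 0.446, and 0.43 without dwarf 3). Its other arm, miR-148a-5p, ran from 18.4 to 42.1 CPM in dwarf libraries and from 9.57 to 18.3 CPM in normal ones, so that the groups touched without overlap (log2 fold change 0.91, SE 0.46, edgeR adjusted p = 0.618). The 3 tested miRNAs with the miR-148a-3p seed, which include miR-148b-3p and miR-152-3p, all stood higher, at log2 fold changes of 0.18 to 0.67.

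Among muscle miRNAs, those of the cardiac myosin genes had log2 fold changes of opposite sign. MiR-208a-3p is cut from an intron of Myh6, the fast cardiac myosin that thyroid hormone induces (chr14:54949060-54949142), and miR-208b-3p from an intron of Myh7, the slow myosin that thyroid hormone represses (chr14:54975700-54975776). Their mature forms share a seed and differ at 3 of 22 bases, written G10A, A16G and C18U with the base of miR-208a-3p first.

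MiR-208b-3p stood at 1.46, 7.95, 6.46, 2.53 and 7.05 CPM in normal and at 2.37, 22.1, 18.1, 18.4 and 52.6 CPM in dwarf libraries. Dwarf 2 to 5 lay above every normal library, and dwarf 1 lay inside the normal range (log2 fold change 2.14, SE 0.78, edgeR adjusted p = 0.369). MiR-208a-3p had 0.97, 26.4, 10.5, 5.06 and 14.1 CPM in normal and 4.74, 9.30, 2.22, 5.74 and 8.96 CPM in dwarf libraries, which lay wholly within the normal range (log2 fold change -0.87, SE 0.71, edgeR adjusted p = 0.719). Without normal 2 that value was -0.30, and without normal 1, normal 4 and dwarf 1 it was -1.38.

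The ratio within each library set these 2 miRNAs side by side. The log2 ratio of miR-208b-3p to miR-208a-3p reads, each plus 1, was 0.42, -1.68, -0.67, -0.93 and -0.97 in normal and -0.87, 1.22, 2.84, 1.62 and 2.50 in dwarf libraries. It was above every normal value in dwarf 2 to 5 and within the normal range in dwarf 1. The pair was picked out after its values were seen and gets no test, and the counts are low, 2 to 63 reads of miR-208a-3p and 3 to 135 of miR-208b-3p per library.

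The muscle list as a whole did not share a direction. Of its 7 tested members, which include miR-208a-3p and miR-208b-3p, 5 stood higher and 2 lower, with a median log2 fold change of 0.28 that was -0.01 without normal 1 and -0.14 without normal 1, normal 4 and dwarf 1. The abundant miR-133a-3p, shared by heart and skeletal muscle, had a log2 fold change of 0.08 (SE 0.62, edgeR adjusted p = 0.981), with 4147 ± 1414 CPM in dwarf and 3930 ± 3042 CPM in normal serum (SD, n = 5 each). MiR-499-5p, from an intron of another slow myosin gene, stood at a log2 fold change of -0.37 (SE 0.71, edgeR adjusted p = 0.915).

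MiR-335 lies in an intron of Mest (chr6:30741299-30741396), a paternally expressed imprinted gene of growing tissue and expanding fat. MiR-335-3p had the smallest p of all miRNAs. It stood at 46.6, 11.7, 8.31, 26.4 and 10.6 CPM in normal and at 5.69, 6.09, 7.39, 3.06 and 7.40 CPM in dwarf libraries. All dwarf libraries lay under all normal ones, and normal 1 and 4 were far above the other normal libraries (log2 fold change -1.79, SE 0.45, edgeR adjusted p = 0.183). Without normal 1, normal 4 and dwarf 1 the value was -0.78.

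The other arm, miR-335-5p, stood in the opposite order. It had 27.7, 51.9, 33.9, 19.98 and 66.3 CPM in normal and 29.4, 71.2, 105, 45.9 and 70.1 CPM in dwarf libraries (log2 fold change 0.69, SE 0.38, edgeR adjusted p = 0.618, and 0.41 without dwarf 3). The libraries overlapped, and normal 1 and 4, the highest for the 3p arm, were the lowest for the 5p arm. The log2 ratio of the 5p to the 3p arm ran from 2.28 to 3.77 in dwarf and from -0.74 to 2.61 in normal libraries. In normal 1 and normal 4 the ratio was -0.74 and -0.40, and in the other normal libraries it was 1.99 to 2.61. Of 84 hairpins with both arms tested, the arms had log2 fold changes of the same sign in 57 (67.9%). With all libraries, normal 1 and normal 4 among them, miR-335 showed the widest gap between its arms, 2.48.

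Another 2 of these 84 hairpins (2.38%) had a 5p to 3p ratio whose groups did not overlap, both picked out after their values were seen. The log2 ratio of miR-423-5p to miR-423-3p was 0.69 to 1.38 in dwarf and 1.43 to 2.22 in normal libraries. For miR-15a it was 5.804 to 6.197 in dwarf and 6.38 to 7.04 in normal libraries. In both hairpins the 5p arm, the more abundant one, took a smaller part in dwarf serum.

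MiR-205-5p, a marker of stratified and glandular epithelia encoded in an exon of 4631405K08Rik (chr1:193507463-193507530), stood lower in dwarf serum. Normal libraries had 426, 304, 136, 282 and 168 CPM and dwarf libraries 130, 81.2, 59.9, 40.6 and 159 CPM. Only dwarf 5 reached into the normal range, between normal 3 and normal 5 (log2 fold change -1.48, SE 0.39, edgeR adjusted p = 0.183). The difference was -1.28 without normal 1, normal 4 and dwarf 1. The other 6 tested epithelial miRNAs, among them the miR-200 family that keeps cells epithelial, lay between log2 fold changes of -0.20 and 0.10.

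**Figure D2:**
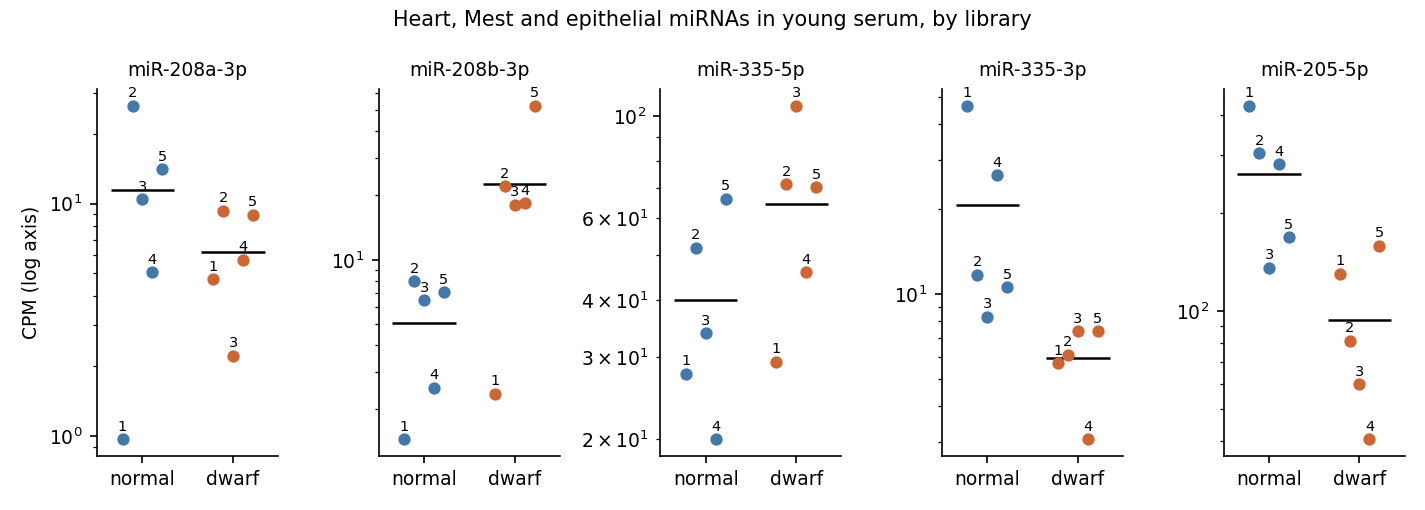
CPM on log axes, each panel with its own range, for 5 miRNAs in the 5 normal and 5 dwarf young libraries, numbered by replicate, with a black line at the group mean. MiR-208b-3p lay above all normal libraries in dwarf 2 to 5, miR-208a-3p stayed within the normal range, and miR-335-3p lay under all normal libraries in all 5 dwarf libraries.

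MiR-5113, annotated in an exon of Tnrc6b on chromosome 15, stood at 15.5, 7.95, 15.1, 22.5 and 7.05 CPM in normal and at 7.11, 4.81, 1.48, 6.51 and 5.06 CPM in dwarf libraries. The groups overlapped by dwarf 1 and normal 5 alone (log2 fold change -1.45, SE 0.41, edgeR adjusted p = 0.183). MiR-501-3p, from the miRNA cluster in an intron of Clcn5 on the X chromosome, had 35.4, 45.2, 32.9, 38.3 and 23.97 CPM in normal and 24.7, 18.3, 18.8, 23.4 and 11.3 CPM in dwarf libraries. Dwarf 1 just passed normal 5, and the other dwarf libraries lay below (log2 fold change -0.87, SE 0.29, edgeR adjusted p = 0.304).

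MiR-28a-3p had 26.7 to 41.6 CPM in normal and 14.9 to 25.0 CPM in dwarf libraries, with no overlap (log2 fold change -0.69, SE 0.24, edgeR adjusted p = 0.365). MiR-345-3p had 25.0 to 30.4 CPM in normal and 10.3 to 24.7 CPM in dwarf libraries, also with no overlap (log2 fold change -0.63, SE 0.29, edgeR adjusted p = 0.615). MiR-320-3p, a miRNA made without Drosha, was lower at 695 ± 146 against 1017 ± 205 CPM (SD, n = 5 each), with a log2 fold change of -0.55 (SE 0.21, edgeR adjusted p = 0.407). MiR-484 and miR-877-5p, which also bypass Drosha, had log2 fold changes of -0.68 and -1.17 (SE 0.34 and 0.57), and neither had an unadjusted p under 0.05. Without dwarf 1 the value of miR-877-5p was -1.83, and that of miR-484 was -0.45 without normal 1, normal 4 and dwarf 1.

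The abundant miR-22-3p, made in many tissues including muscle and fat, had 66733, 86597, 79840, 75368 and 70734 CPM in normal and 54026, 52796, 71059, 54515 and 64428 CPM in dwarf libraries. Only dwarf 3 lay within the normal range, and the difference was small (log2 fold change -0.35, SE 0.16, edgeR adjusted p = 0.569). It was the one miRNA among the 10 most abundant that had an unadjusted p under 0.05.

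A pair of miRNA entries outside the tissue groups stood higher. MiR-2137 had 18.4, 23.0, 24.01, 47.5 and 1.06 CPM in normal and 47.9, 54.2, 51.0, 53.2 and 64.3 CPM in dwarf libraries, with no overlap, and normal 5 was far below the rest (log2 fold change 1.24, SE 0.47, edgeR adjusted p = 0.407, and 0.92 without normal 5). MiR-6240 had 5.64 to 25.2 CPM in normal and 24.4 to 60.9 CPM in dwarf libraries, and dwarf 3 alone lay inside the normal range (log2 fold change 1.47, SE 0.46, edgeR adjusted p = 0.253). Without normal 1, normal 4 and dwarf 1, the value of miR-6240 was 2.12.

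The imprinted Dlk1-Dio3 locus on chromosome 12 carries the largest miRNA cluster of the mouse, expressed from the maternal chromosome in embryo, placenta, brain and muscle and low in most adult tissues. All 31 tested miRNAs of a list of 103 stood higher in young dwarf serum, at log2 fold changes of 0.33 to 1.98 with a median of 0.92 beside -0.04 over all tested miRNAs. None passed the adjusted threshold in edgeR. Of the 31, 2 had an unadjusted p under 0.05, miR-434-3p and miR-376b-5p. That share is near the background of 3.89% of all tested miRNAs on the higher side. The read filter used all 20 libraries, so members low in normal serum could pass it through dwarf libraries alone. The 31 also count miR-299a-3p and miR-299b-3p, which have identical counts, under both names. That all 31 stood higher is therefore only a description.

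MiR-434-3p, which lies opposite the coding exon of Rtl1 (chr12:109594506-109594599), had 64.0, 278, 225, 66.1 and 336 CPM in normal and 188, 512, 572, 419 and 654 CPM in dwarf libraries. Dwarf 2 to 5 lay above all normal libraries, and dwarf 1 lay among them (log2 fold change 1.27, SE 0.50, edgeR adjusted p = 0.407). MiR-376b-5p, from the Mirg side of the locus, was found in 0 to 7 reads per normal library and 1 to 17 reads per dwarf library (log2 fold change 1.98, SE 0.83, edgeR adjusted p = 0.446). MiR-127-3p, the most abundant of the Rtl1-antisense miRNAs, had 18.4, 640, 431, 54.3 and 873 CPM in normal and 150, 854, 1113, 807 and 975 CPM in dwarf libraries. The groups overlapped across normal 2, 3 and 5, and the difference was smaller than the spread within the normal group (log2 fold change 0.95, SE 0.82, edgeR adjusted p = 0.733).

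The mean level of the locus differed widely between libraries of the same group. The mean log2 CPM of the 31 miRNAs was 1.64, 4.18, 3.72, 1.80 and 4.40 in normal and 2.58, 4.51, 4.92, 4.39 and 4.68 in dwarf libraries. Normal 1, normal 4 and dwarf 1 were low, and the other 7 libraries lay at 4.39 to 4.92 in dwarf and 3.72 to 4.40 in normal serum. The list's median log2 fold change was 0.67 without normal 4 and 0.58 without normal 1, normal 4 and dwarf 1.

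The same 3 libraries set the main axis of variation in young serum. The first principal component held 66.7% of the variance, with scores of 20.9 for normal 1, 16.5 for normal 4 and 12.1 for dwarf 1, and scores of -1.60 to -14.4 for the other 7. The miRNAs with the largest loadings at the low end were led by the locus members miR-127-3p, miR-541-5p, miR-136-5p and miR-381-3p and included the muscle miRNA miR-133b-3p. The high end was led by miR-128-3p, with miR-328-3p and miR-423-5p close behind.

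MiR-128-3p, known as a brain miRNA and also made in blood cells, had 11795, 1679, 1568, 5902 and 1058 CPM in normal and 8048, 2724, 580, 1374 and 2063 CPM in dwarf libraries. Normal 1, dwarf 1 and normal 4 were highest, whatever the genotype, and the log2 fold change of -0.57 (SE 0.78, edgeR adjusted p = 0.849) was 0.21 without them. The second component held 9.17% of the variance. On it, dwarf scores ran from -6.06 to 0.18 and normal scores from -0.63 to 7.73. Pairs of libraries of different genotype correlated as closely (median r 0.963 over 25 pairs of log2 CPM profiles across miRNAs) as pairs of normal (0.946) or dwarf libraries (0.971), given as a description since the libraries recur in many pairs.

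**Figure D3:**
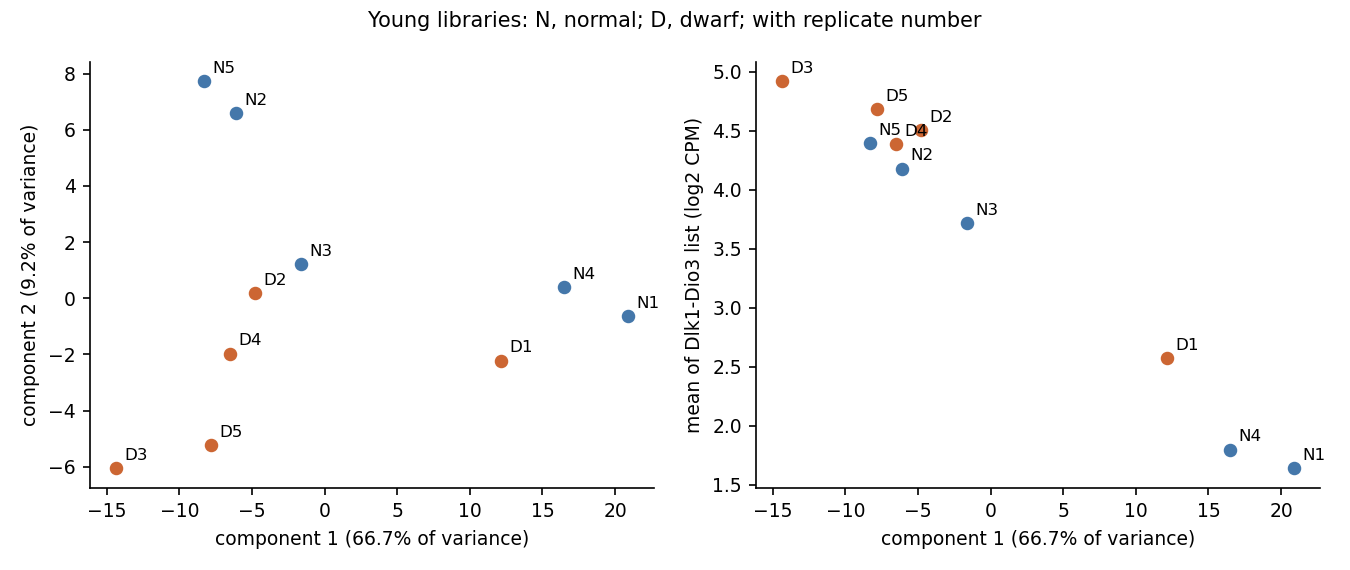
Left, scores of the 10 young libraries on the first 2 principal components of log2 CPM, and right, the mean log2 CPM of the 31 tested Dlk1-Dio3 miRNAs against the first component (N normal, D dwarf, with replicate number). Normal 1, normal 4 and dwarf 1 lie at the right with the lowest Dlk1-Dio3 means, 1.64 to 2.58, and the other 7 libraries lie between 3.72 and 4.92.

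Vascular miRNAs stood slightly higher. All 5 tested miRNAs of endothelium and smooth muscle had positive log2 fold changes, 0.27 to 0.51 with a median of 0.40, and 1 had an unadjusted p under 0.05, against 3.89% of all tested miRNAs on the higher side. That was miR-126a-5p, from the endothelial gene Egfl7, with 1237, 2112, 1666, 1445 and 2119 CPM in normal and 2200, 2461, 2809, 2006 and 2607 CPM in dwarf libraries. Only dwarf 4 lay within the normal range (log2 fold change 0.49, SE 0.21, edgeR adjusted p = 0.460). Without normal 1, normal 4 and dwarf 1, the list's median was 0.13 and the value of miR-126a-5p 0.32.

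Of 9 tested miRNAs of fat and lipid metabolism, 8 stood higher, with a median log2 fold change of 0.38 that was 0.12 without the same 3 libraries. MiR-455-5p, a miRNA of brown fat and cartilage, had 3.396, 7.11, 5.54, 2.53 and 14.1 CPM in normal and 5.69, 11.9, 33.3, 12.6 and 19.9 CPM in dwarf libraries. Dwarf 3 and 5 were highest and normal 5 exceeded 3 of the dwarf libraries (log2 fold change 1.35, SE 0.50, edgeR adjusted p = 0.400). MiR-378a-3p, from the metabolic coactivator gene Ppargc1b, had a log2 fold change of 0.38 (SE 0.37, edgeR adjusted p = 0.749), while miR-103-3p and miR-33-5p, the latter from an intron of the sterol regulator Srebf2, lay at 0.05 and -0.05.

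All 4 tested miRNAs of the Hox clusters stood higher, between log2 fold changes of 0.02 and 0.80, with a median of 0.30 that was 0.03 without dwarf 3. MiR-196b-5p, which lies in the Hoxa cluster, had 2.93 to 8.002 CPM in normal and 6.62 to 12.8 CPM in dwarf libraries (log2 fold change 0.80, SE 0.32, edgeR adjusted p = 0.446). Dwarf 5 alone of the dwarf libraries lay inside the normal range.

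Erythroid miRNAs stood slightly lower, and none of them had an unadjusted p under 0.05. The 9 erythroid entries, which count the miR-486 arms under both names, all had negative log2 fold changes, with a median of -0.43. That median was -0.19 without normal 4 and -0.27 without normal 1, normal 4 and dwarf 1. MiR-486a-5p had 282498, 148136, 297096, 409312 and 166642 CPM in normal and 296229, 153474, 111467, 231974 and 171456 CPM in dwarf libraries, which overlapped almost fully (log2 fold change -0.43, SE 0.30, edgeR adjusted p = 0.670, and -0.19 without normal 4). MiR-451a, which matures without Dicer, and miR-16-5p lay at -0.15 and -0.04 (SE 0.28 and 0.20), and both turned positive when library totals without scaling factors were used.

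Of 8 myeloid and platelet miRNAs, 7 stood lower, with a median log2 fold change of -0.33, and none had an unadjusted p under 0.05. The median was -0.13 without normal 1, -0.50 without dwarf 1 and -0.21 without normal 1, normal 4 and dwarf 1. The granulocyte miRNA miR-223-3p lay at -0.29 (SE 0.33) and the haematopoietic miR-142a-3p at -0.37 (SE 0.20), and the groups overlapped for both. Library totals without factors raised the median of all miRNAs from -0.04 to 0.18. With that scaling the erythroid median was -0.14 and the myeloid median -0.08, both still below the median of all miRNAs. The lymphocyte list, with miR-150, miR-155 and the miR-181 family, had 5 higher and 2 lower members with a median of 0.06.

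The Sfmbt2 cluster, a rodent-specific imprinted array of miRNAs with many near-identical copies, had 4 tested entries that shared reads in 2 pairs of names. MiR-669a-3p, with the same counts as miR-669o-3p, had 6.79, 6.28, 1.54, 5.35 and 2.12 CPM in normal and 3.79, 2.25, 0.74, 0.38 and 1.56 CPM in dwarf libraries. Normal 3 and 5 lay within the dwarf range and normal 1, 2 and 4 above it (log2 fold change -1.32, SE 0.55, edgeR adjusted p = 0.446), on 1 to 19 reads per library. MiR-669a-5p, with the counts of miR-669p-5p, lay at -0.72 (SE 0.38), or -0.40 without normal 4, and reads of this cluster cannot be assigned to single copies with certainty. The list's mean log2 CPM was 3.92, 3.52, 2.48, 3.96 and 2.68 in normal and 3.37, 2.57, 2.35, 1.81 and 2.33 in dwarf libraries. Its median log2 fold change of -1.02 was -0.81 without normal 4 and -1.37 without dwarf 1.

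**Figure D4:**
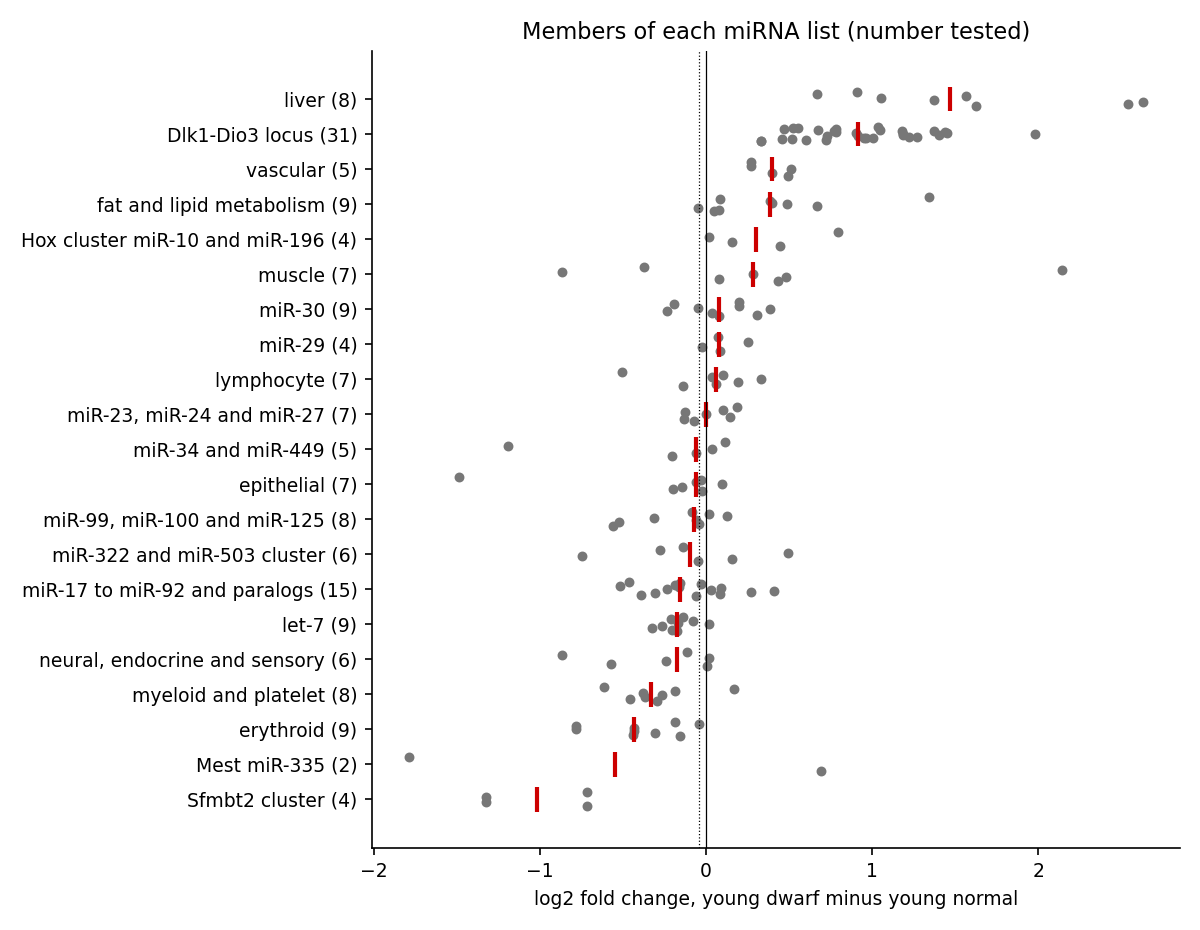
Log2 fold change, young dwarf minus young normal, of each tested member of 21 miRNA lists (grey points, number tested in brackets), with the list's median in red and a dotted line at the median of all tested miRNAs, -0.04. The liver list (median 1.47) and the Dlk1-Dio3 list (0.92) lay highest and the Sfmbt2 cluster (-1.02) lowest, and no member passed the adjusted threshold in edgeR.

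Families that share a seed were also read together, counting only the 311 tested miRNAs with a sequence. Of the 9 let-7 miRNAs, which restrain growth and cell-cycle genes, 8 stood lower, with a median log2 fold change of -0.17, and all lay between -0.32 and 0.02. The median was -0.11 without normal 4 and -0.27 without normal 2. With library totals the let-7 median was 0.06, still under the median of all miRNAs with that scaling. All 6 counted miRNAs of the miR-15 and miR-16 seed and all 5 of the miR-25 and miR-92 seed stood lower. Their medians were -0.08 and -0.18, sizes within the standard error of most single miRNAs. The miR-99 and miR-100 seed family had 3 of 3 lower with a median of -0.52, and the miR-29 seed family 3 of 3 higher with a median of 0.09. The seed families of miR-125, miR-200b and the let-7 3p arms also stood lower throughout, at medians of -0.31, -0.15 and -0.12. These sizes are under the median standard error of a tested miRNA, 0.39. The let-7 3p family counts let-7a-1-3p and let-7c-2-3p, which have identical counts, under both names. Other families were mixed, with 2 higher and 3 lower for the miR-17 seed and 2 and 2 for the miR-181 seed. The miR-30 and miR-130 seeds each had 1 higher and 2 lower among the miRNAs with a sequence. MiR-30b-5p and miR-30d-5p, tested but without a sequence there, lay at log2 fold changes of 0.04 and -0.05. Of all 360 tested miRNAs, 197 stood lower. Across the 311 miRNAs with a sequence, the 78 with the highest GC content had 25 higher in dwarf serum and the 78 with the lowest had 37, and the part of base composition in the differences was not tested.

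The genotype difference in young serum was set beside that in old serum, which uses other libraries. Old dwarf against old normal gave 95 of 360 miRNAs past the adjusted threshold in the same edgeR fit (26.4%), against 0% in young serum. The size of the log2 fold change had a median of 0.33 in young and 0.72 in old serum. The sign was the same at both ages for 261 of 360 miRNAs (72.5%), and for 27 of the 28 with an unadjusted p under 0.05 in young serum (96.4%). Across the miRNAs, the log2 fold changes correlated with r = 0.607, a description, since miRNAs are not independent of each other.

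Some of the miRNAs that led the young comparison passed the threshold in old serum. MiR-335-3p lay at -1.79 in young and -1.64 in old serum (edgeR adjusted p = 0.0133 in old), and miR-205-5p at -1.48 and -1.20 (edgeR adjusted p = 0.0299 in old). MiR-501-3p lay at -0.87 and -1.09 (edgeR adjusted p = 0.0113 in old). MiR-802-5p had log2 fold changes of 2.54 and 1.73, of which neither passed. MiR-208a-3p lay at -0.87 in young and 0.33 in old serum and miR-208b-3p at 2.14 and 1.83, and none of these passed. MiR-215-5p had 1.56 in young and -0.27 in old serum, and this difference between ages had an edgeR adjusted p of 0.186. The Dlk1-Dio3 list had a median of 0.92 in young and 3.66 in old serum, but none of its 31 tested members passed the test for a difference between ages. The old dwarf libraries were also split, with list means of 4.498, 2.23, 1.91, 4.24 and 4.86 log2 CPM. The highest mean in old normal libraries was 1.61.

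The test of the difference itself passed for 2 of 360 miRNAs (0.556%), the arms of miR-34c, a target of p53 that is also abundant in testis and ciliated cells. MiR-34c-3p had 4.85, 2.93, 5.23, 1.97 and 3.88 CPM in young normal and 1.90, 1.28, 1.85, 1.91 and 1.17 CPM in young dwarf libraries, so that all young dwarf libraries lay lower, on 3 to 17 reads per library. In old serum it lay at 0.50 to 3.81 CPM in normal and 2.15 to 28.2 CPM in dwarf libraries. The log2 fold change was -1.19 in young and 2.74 in old serum, a difference of 3.93 (SE 0.85, edgeR adjusted p = 0.0472).

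MiR-34c-5p showed no such order in young serum, at 12.1, 11.3, 33.9, 4.50 and 29.3 CPM in normal and 2.85, 10.6, 41.4, 26.8 and 11.7 CPM in dwarf libraries. Its log2 fold change was 0.04 (SE 0.65) in young and 4.45 in old serum, a difference of 4.42 (SE 0.998, edgeR adjusted p = 0.0472). Of 20 fits that each left out 1 library, 4 kept the difference of miR-34c-3p past the threshold and 3 that of miR-34c-5p, with adjusted p-values of 0.00844 to 0.122. The differences themselves stayed between 3.23 and 4.53 for miR-34c-3p and between 4.08 and 4.91 for miR-34c-5p. No miRNA differed between ages with library totals, the 10-CPM filter, summed rows, the haemolysis covariate or the replicate block, or without young dwarf 3 and 5, and miR-34c-3p alone did with RLE factors. The 10-CPM filter and the summed rows left miR-34c-3p itself untested. DESeq2 gave 20, and the fit without young normal 1, young normal 4 and young dwarf 1, chosen after seeing the data, gave 32, both arms of miR-34c among them. MiR-34b-3p and miR-449a-5p, of the same family, lay at -0.06 and 0.12 in young serum, and their differences between ages had edgeR adjusted p-values of 0.131 and 0.181.

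**Figure D5:**
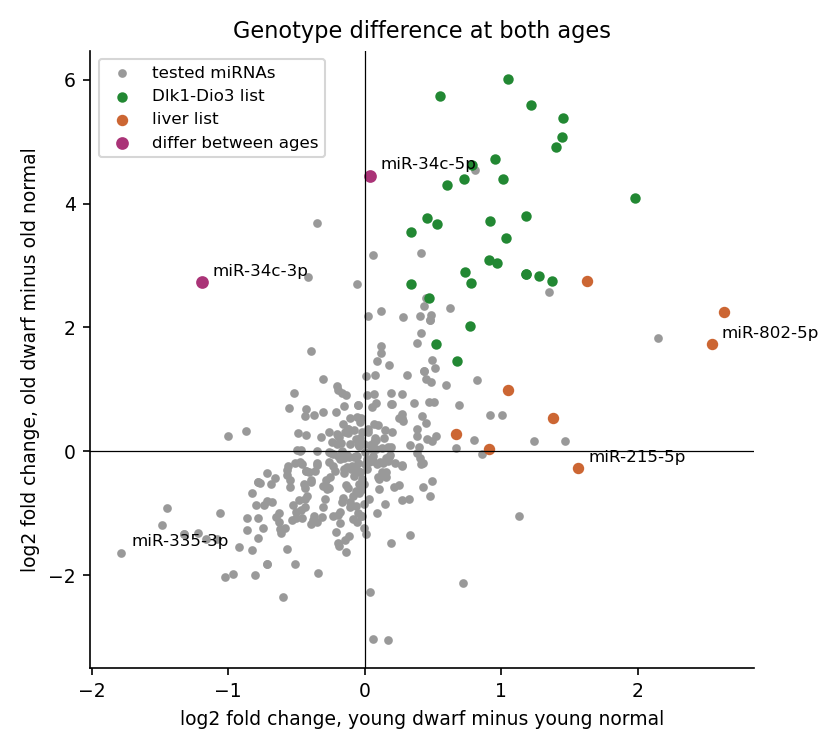
Log2 fold change of dwarf minus normal in young serum (horizontal) against that in old serum (vertical) for the 360 tested miRNAs, with the Dlk1-Dio3 list, the liver list and the 2 miRNAs that differed between ages in colour. The Dlk1-Dio3 miRNAs lie to the right of 0 and reach about 6 on the old axis, and the arms of miR-34c lie near or left of 0 in young and above 2 in old serum.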

How the data were processed

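Small RNA of mouse serum was sequenced, and the deposited table holds whole-number read counts with 1 row per mature miRNA on a precursor. The layout is like that of the miRDeep2 quantifier, which is inferred from the column names. The authors' RPM values in the same table equal the count over its column sum (within 0.005 RPM) and were used only for that check. Bowtie 0.12.8, bedtools, edgeR and GRCm38 (mm10) appear in the submitters' processing notes, with no roles given. The deposited report of hairpin candidates with its score and read numbers was not used, and 0 columns of per-sample values were left unused.

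For each of 1915 names the row with the highest total was kept. Reads that fit more than 1 precursor count in every such row, and 36 names fell into 17 sets with identical counts. Counts were tested with edgeR 4.0.16 (R 4.3.3) by quasi-likelihood on all 20 libraries with 4 group coefficients, TMM factors, the default filter (minimum count 10) and Benjamini-Hochberg adjustment over 360 miRNAs, which held at least 99.9% of the reads of each library. The common biological coefficient of variation was 47.5%. Standard errors were derived from the log2 fold change and F. Levels are CPM on TMM-adjusted totals, in which reads listed under several names count under each, and PCR copies are not independent molecules. Library measures were compared with 2-sided exact permutation tests, whose smallest p is 0.00794. Scripts were tested on simulated data.

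Named miRNAs were the 15 higher and 15 lower with the smallest p and at least 10 CPM in a group, up to 4 of each of 21 lists, the 10 most abundant, 10 fixed names, and their other arms and cluster members. Members, lists and rule were chosen with earlier results of these data known. Positions come from GENCODE M21. Alternatives were other scaling, filters, tests (DESeq2 1.42.0), row choices, a replicate block, a haemolysis covariate and libraries left out. Leaving out young normal 1 and 4 and young dwarf 1 together was chosen after seeing the data.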

Additional observations from a re-analysis of the deposited data

Results flagged for a closer look

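Among 162 groups of 5 libraries, 9 held a library that stood apart from the other 4 by a Dixon ratio above 0.710, and chance gives about 1 in 20. Dwarf 1 was the lowest library in 5 of them. It had 7.11 CPM of miR-133a-5p against 19.1 to 22.9 in the other dwarf libraries, 0.474 CPM of miR-376b-5p against 3.85 to 6.28, and 2.37 CPM of miR-376c-3p against 11.1 to 14.4. Its mean log2 CPM was also lowest for the muscle list, 3.65 against 5.10 to 5.49, and for the Dlk1-Dio3 list, 2.58 against 4.39 to 4.92. These 5 are not separate, since miR-133a-5p belongs to the muscle list and miR-376b-5p and miR-376c-3p to the Dlk1-Dio3 list. Dwarf 3 was lowest for miR-5113 (1.48 CPM, others 4.81 to 7.11) and highest for the mean of the Hox cluster list (8.58 log2 CPM, others 7.85 to 8.02). Dwarf 4 had the least miR-28a-3p (14.9 CPM, others 22.3 to 25.0), and normal 5 the least miR-2137 (1.06 CPM, others 18.4 to 47.5).

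The genotype difference of the arms of miR-34c differed between old and young serum, by 3.93 on the log2 scale for miR-34c-3p and by 4.42 for miR-34c-5p (edgeR adjusted p = 0.0472 for both). Of 20 fits that each left out 1 library, 4 kept this call for miR-34c-3p and 3 for miR-34c-5p, and it was lost for both with the replicate block, library totals, the haemolysis covariate and without young dwarf 3 and 5.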

How the results depend on the processing

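The counts of 0 higher and 0 lower miRNAs were also 0 in every fit that left out 1 library. With DESeq2, 3 were higher, 3 lower and 20 differed between ages. Without a filter on low counts, 1 was higher (miR-802-5p) and 13 differed between ages. With the haemolysis index as covariate, 1 was lower (miR-205-5p) and 0 differed between ages. The count that differed between ages was 0 with library totals, with the 10-CPM filter, with summed rows and without dwarf 3 and 5, 1 with RLE factors, 32 without normal 1 and 4 and dwarf 1, and 0 to 3 when 1 library was left out. With the replicate block 0 were higher, 0 lower and 0 differed between ages. Same-numbered libraries deviated together with correlations of -0.22 to 0.81, and in 0 of 5 pairs did each correlate best with its own number, so the numbers were not taken to pair the libraries. The haemolysis difference ran from -0.252 to 0.156 with 1 library left out.

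Of 50 miRNAs followed through 22 other fits, 45 kept their direction. The others were miR-122-5p (-1.47 without dwarf 3 and 5), miR-451a (0.10 with library totals, -0.29 to 0.067 with 1 library left out), miR-16-5p (0.21 with library totals, 0.017 with RLE and with DESeq2, 0.0069 with the covariate, 0.10 without dwarf 3 and 5, and -0.14 to 0.081 with 1 library left out), miR-128-3p (0.21 without normal 1 and 4 and dwarf 1, -1.39 to 0.20 with 1 left out) and miR-34b-3p (0.23 with library totals, 0.12 without those 3 libraries, -0.40 to 0.15 with 1 left out). The cause of these changes was not tested. Medians of 10 of 21 lists kept their sign. The median standard error was 0.45 for miRNAs under 100 CPM and 0.30 for the others, and the parts of depth and of spread between libraries were not tested.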
